A study of Homo sapiens with 24 samples.

Results

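The genes described here are 40 protein coding genes whose products make ribosomes in the nucleolus. They were taken from the count table by a fixed list of symbols, with the gene type protein coding, and were 40 of its 48162 genes. RNA was sequenced from PPC1, an established human prostate cancer cell line, in 4 conditions of 6 libraries each, numbered 1 to 6. Parental cells had neither radiation nor filtration. Polyploid giant cancer cells (PGCC), very large cells with multiplied genomes, came from plates seeded on day 1, given 8 Gy of radiation on day 2 and harvested on day 5 with trypsin. After harvest the irradiated cells were passed over a strainer with 20 micron pores, and PGCC are the cells that stayed on it. In each population another 6 libraries came from cells kept for the last 5 hours in 5 µM LCL521, an inhibitor of acid ceramidase (ASAH1), the lysosomal enzyme that splits ceramide into sphingosine and a fatty acid. Radiation, filtration by size and time since irradiation all separate PGCC from parental cells and cannot be told apart here. All 24 libraries came from 1 cell line.

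Ribosomes are built in the nucleolus, where RNA polymerase I transcribes the long precursor of most ribosomal RNAs. Small nucleolar ribonucleoproteins (snoRNPs) then modify the precursor, box C/D particles by methylation and box H/ACA particles by turning uridine into pseudouridine, while assembly factors cut and fold it around ribosomal proteins into the small and the large subunit. The genes for these factors are known targets of the transcription factor MYC, and large nucleoli have long been a sign by which pathologists recognise prostate cancer.

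The libraries held between 14835246 and 19906601 counts, and the lowest count of any of the 40 genes in any library was 600. On the first principal component of log2 CPM (counts of a gene scaled to a common library size), with 55.9% of the variance, PGCC libraries lay apart from parental ones, and on the second, with 16.5%, replicates 4 and 5 of every condition lay apart from replicates 1, 2, 3 and 6. Replicates 4 and 5 also had 4.10% to 5.33% of their counts on the mitochondrial chromosome, against 0.954% to 4.55% in the others. The results that rest on them are given with and without them. Of the prostate markers, HOXB13 was at 771 CPM (median) in parental cells and 416 CPM in PGCC, while KLK3, KLK2 and FOLH1 were at a median of 0, so of the prostate markers given here HOXB13 alone was detected at the median. KRT8 and KRT18, keratins of simple epithelium, were at 66.3 and 243 CPM in parental cells, and CDH1 was at 2.70 CPM.

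The 40 genes together took between 0.941% and 1.34% of the counts in parental libraries (median 1.21%) and between 0.785% and 0.983% in PGCC libraries (median 0.922%). The parental libraries with the lowest shares were replicates 4 and 5, and these alone fell inside the PGCC range. Per kilobase of gene length, NPM1 had the highest level in parental cells with a median of 1709 CPM per kb, followed by NCL with 458 and NOP56 with 262. POLR1A with 15.6 CPM per kb and UTP20 with 13.9 had the lowest levels.

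Between PGCC and parental cells, 26 of the 40 genes fell, 2 rose (TCOF1 and NOP10) and 12 did not pass the test. Here, as below, a gene passed where its adjusted p was under 0.05 in edgeR (quasi-likelihood test), adjusted by Benjamini and Hochberg's method over all genes tested. The median of the 40 log2 fold changes was -0.41, against -0.03 over all 13812 genes tested, of which 47.4% passed, 24.3% as lower and 23.1% as higher. The log2 fold change was below 0 for 35 of the 40 genes and for 52.2% of all genes. The 6 PGCC libraries all lay below the 6 parental libraries for 13 of the genes, and all lay above them for 1, TCOF1, where 12.9% and 13.9% of all genes did so. In these bulk libraries fewer cells that express a gene and less RNA per cell cannot be told apart, and every level is a share of a library, not an amount per cell. The heatmap of all 24 libraries shows the difference and the place of replicates 4 and 5.

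**Figure D1:**
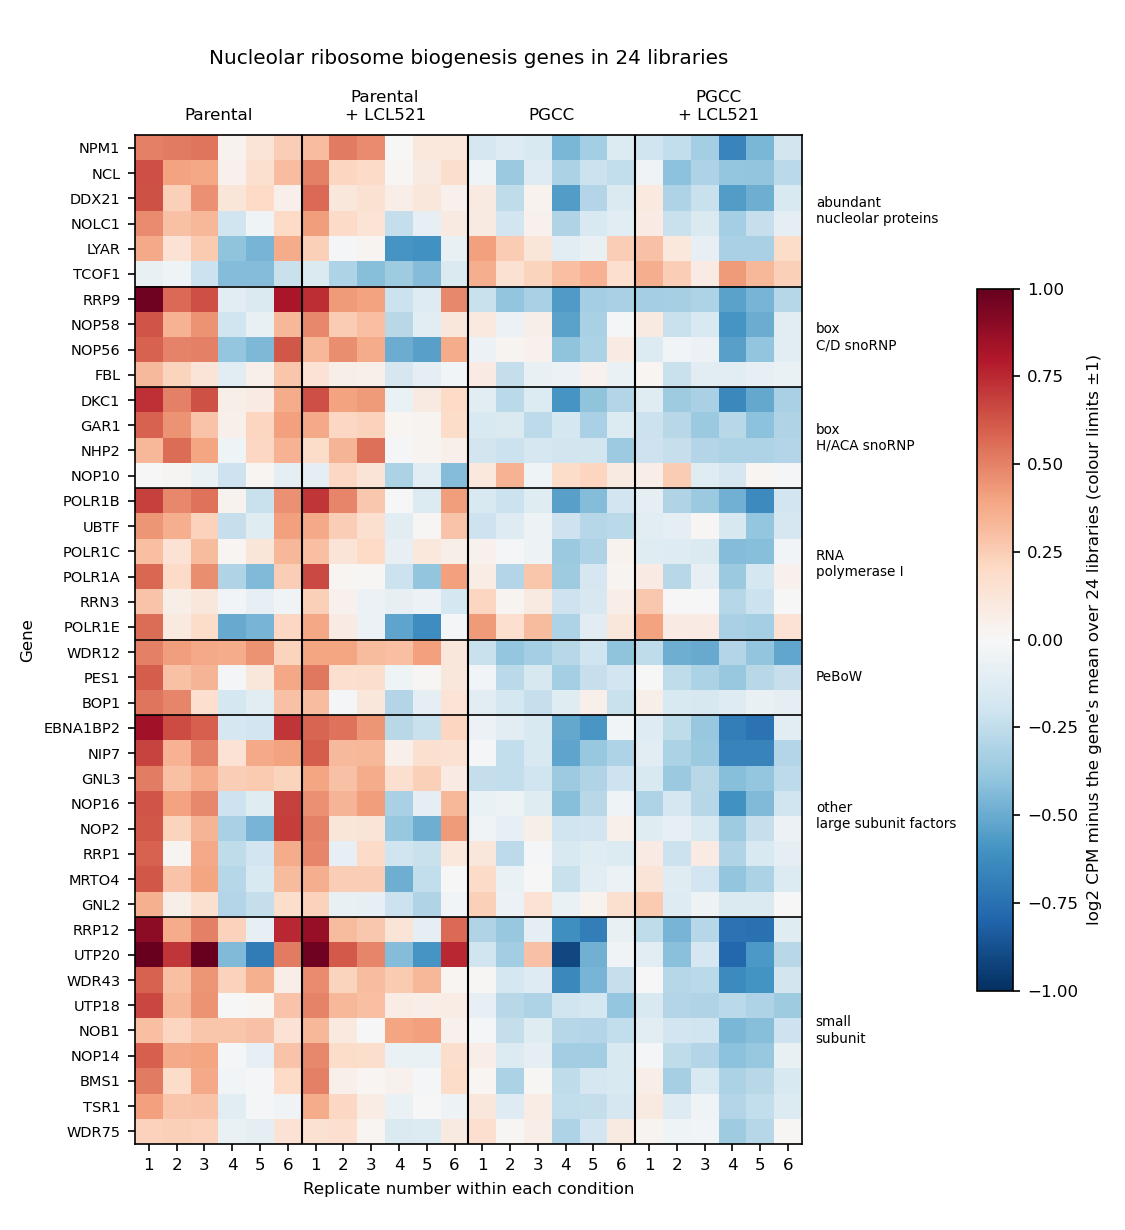
Heatmap of the 40 genes (rows, grouped by role) in the 24 libraries (columns, grouped by condition and ordered by replicate). Colour is the deviation of each gene's log2 CPM from its own mean over all 24 libraries. Parental columns are mostly above the mean, except replicates 4 and 5, and PGCC columns are mostly below it, with TCOF1 the other way round.

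The fall was seen in each replicate pair and was smaller in replicates 4 and 5. With each PGCC library set against the parental library of the same number, the median log2 difference over the 40 genes was -0.56, -0.49, -0.41, -0.23, -0.19 and -0.44 in replicates 1 to 6. Its mean was -0.39 ± 0.15 (SD, n = 6 pairs). The mean over replicates 1, 2, 3 and 6 was -0.47, and over replicates 4 and 5 it was -0.21. Between 28 and 37 of the 40 genes were lower in PGCC in a single pair, 25 genes were lower in all 6 pairs and 2 were higher in all 6. The same counts over all genes are not given here. Fitted without replicates 4 and 5, 33 genes passed as lower and 1 as higher with a median of -0.48, and in replicates 4 and 5 fitted alone 17 passed as lower and 2 as higher with a median of -0.19. These fits hold fewer libraries, and the shares of all genes that passed in them are not given here. The numbers that passed are therefore not compared between the fits.

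Without replicates 4 and 5, all 26 genes that fell passed again, and NOP56 (-0.51, adjusted p = 3.73e-05), NOP2 (-0.46, adjusted p = 0.00206), MRTO4 (-0.37, adjusted p = 0.0032), FBL (-0.29, adjusted p = 0.00761), RRP1 (-0.41, adjusted p = 0.00833), POLR1A (-0.32, adjusted p = 0.0343) and TSR1 (-0.25, adjusted p = 0.0455) passed as lower too. TCOF1 was then the gene that passed as higher (0.38), and NOP10 did not pass (0.18, adjusted p = 0.101). In replicates 4 and 5 alone the genes that passed as higher were TCOF1 (0.76) and LYAR (0.35, adjusted p = 0.0168), while NOP10 was at 0.29 (adjusted p = 0.06). The 9 of the 26 that did not pass there were UTP20, UBTF, BOP1, NOLC1, NOP16, BMS1, UTP18, NHP2 and NOP58, with log2 fold changes from -0.29 (NOP58) to 0.10 (BOP1).

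In replicates 4 and 5 the 40 genes were lower in both populations, and without LCL521 the parental libraries were lower by more. The median deviation of the 40 genes from their means over all libraries (log2 CPM) was between 0.30 and 0.58 in parental replicates 1, 2, 3 and 6, but -0.09 in replicate 4 and -0.08 in replicate 5. In PGCC it was between -0.17 and -0.01 in replicates 1, 2, 3 and 6, and -0.31 and -0.24 in replicates 4 and 5. In parental cells with LCL521 its mean was 0.23 over replicates 1, 2, 3 and 6 and -0.09 over replicates 4 and 5. In PGCC with LCL521 these means were -0.14 and -0.38. The genes of the cytosolic ribosomal proteins, which the nucleolus packs onto the RNA, had median deviations of 0.30 and 0.38 in parental replicates 4 and 5, within the range of 0.29 to 0.40 over all 6 parental libraries.

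**Figure D2:**
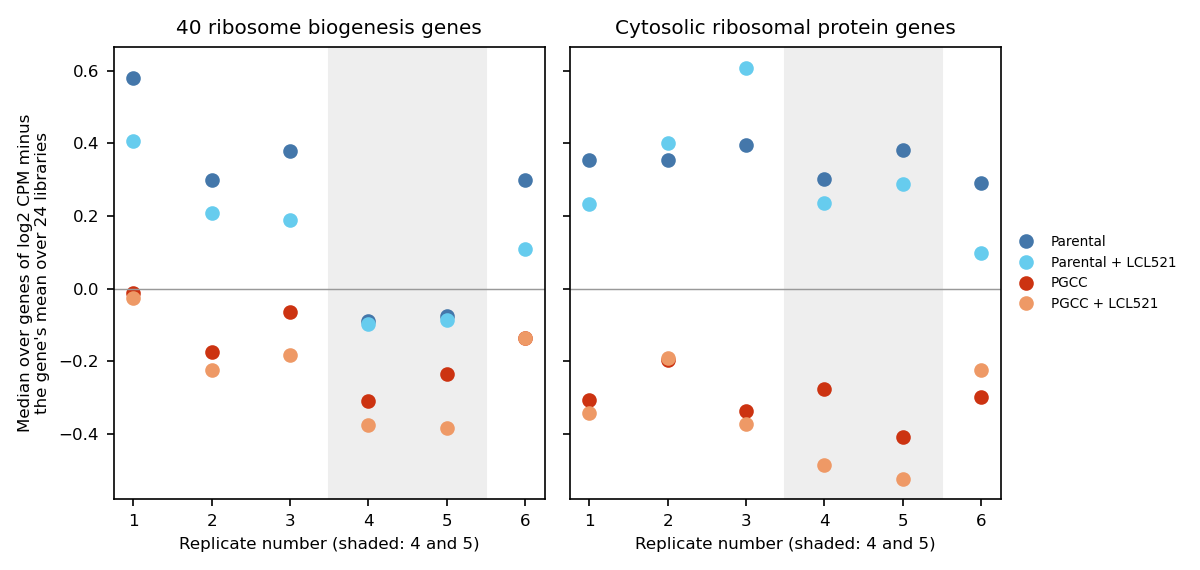
Median deviation (log2 CPM, vertical axis) of the 40 nucleolar genes and of the cytosolic ribosomal protein genes from their means over 24 libraries, by replicate number (horizontal axis) and condition. In parental replicates 4 and 5 the nucleolar genes are near -0.08, while the ribosomal protein genes stay at 0.30 and 0.38.

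The promoters of these genes are shown because so many members moved together. RefSeq promoter sequence (GRCh38.p14, 250 bases before the start) matched 34 of the 40 genes, with no entry for BOP1, NOLC1, NOP58, POLR1E, RRP12 and TCOF1. The search used both strands. For each of these genes only the first entry was used. The shares of all promoters count every entry, whether or not its gene was expressed in these cells. The E-box CACGTG, the letters that MYC binds together with MAX, stood in 4 of the 34 promoters (11.8%), against 6.34% of all 35116 promoters. The stretches that hold it follow, 5′ to 3′ on the strand of the gene, with the E-box in capitals. The motif lay 237 bases before the start in EBNA1BP2 (chr1:43172777-43172820, minus strand), 10 bases before it in UTP20 (chr12:101280070-101280104, plus strand), 89 bases before it in UTP18 (chr17:51260432-51260487, plus strand), and 170 and 11 bases before it in NOP10 (chr15:34343276-34343331 and chr15:34343137-34343172, minus strand).
EBNA1BP2: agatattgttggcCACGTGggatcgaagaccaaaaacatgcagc
UTP20: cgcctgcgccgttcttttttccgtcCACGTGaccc
UTP18: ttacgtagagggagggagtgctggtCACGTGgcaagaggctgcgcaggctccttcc
NOP10, upstream site: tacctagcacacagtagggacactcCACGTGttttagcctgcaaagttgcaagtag
NOP10, site next to the start: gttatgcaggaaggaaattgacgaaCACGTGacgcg
Of these 4 genes EBNA1BP2, UTP20 and UTP18 fell in PGCC and NOP10 rose, and of the 30 without the letters 19 fell and 0 rose.

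The core letters bound by ETS family factors, CCGGAAG, stood in 11 of the 34 promoters (32.4%), against 8.52% of all promoters, and 8 of the 11 genes fell in PGCC while 1 rose, beside 14 that fell and 0 that rose of the 23 without these letters. The other motifs searched were the NRF1 site in 3 promoters (8.82%, against 1.03% of all), the SP1 site GGGCGG in 23 (67.6%, against 42.6%) and the YY1 site in 0 (0.373% of all). No match of one motif shared bases with a match of another in these promoters, while ETS matches overlapped each other in NOP16 and POLR1C and SP1 matches in DKC1, GNL3 and UBTF. Examples of the ETS letters close to the start, in capitals and on either strand, are DDX21 (chr10:68956085-68956141, plus strand, 60 bases before the start), GAR1 (chr4:109815457-109815509, plus strand, 28 bases) and NOP16 (chr5:176388599-176388642, minus strand, 19 bases), where the letters stand on both strands and overlap.
DDX21: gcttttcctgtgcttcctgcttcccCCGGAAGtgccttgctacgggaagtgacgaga
GAR1: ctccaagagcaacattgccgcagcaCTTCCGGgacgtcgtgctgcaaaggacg
NOP16: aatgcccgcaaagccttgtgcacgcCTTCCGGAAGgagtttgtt
A match is a description of letters, and binding was not measured.

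The plot of fold changes orders the 40 genes by role.

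**Figure D3:**
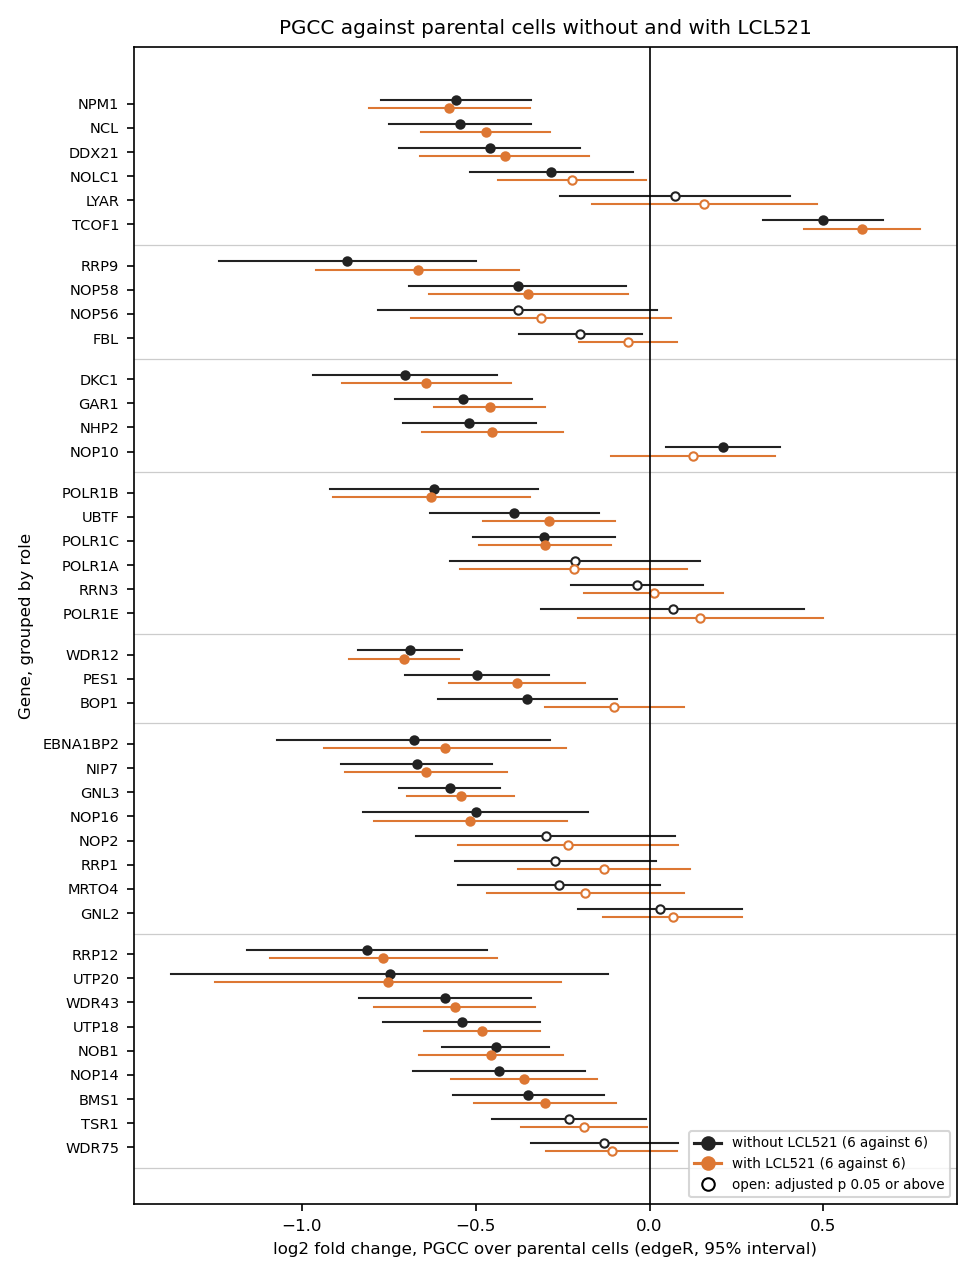
Log2 fold change of each of the 40 genes between PGCC and parental cells (points, horizontal axis) with its 95% confidence interval (bars), grouped by role. Without LCL521, 26 of the 40 lie below 0 and passed the test, and TCOF1 (0.50) and NOP10 (0.21) lie above 0 and passed it.

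Among 6 abundant nucleolar proteins, 4 fell and 1 rose, with a median log2 fold change of -0.37. NPM1 (nucleophosmin, chr5:170814120-170838141, plus strand, hg19 as in the count table) is a histone and ribosome chaperone and the most abundant of the 40. It was at 2359.5 CPM in the lowest parental library, 3005 at the median and 3341 in the highest, and at 1682, 2066 and 2107 CPM in PGCC. No PGCC library reached the lowest parental one, and NPM1 fell by 0.56 on the log2 scale (SE 0.100, n = 6 against 6, edgeR adjusted p = 0.000439). NCL (nucleolin, chr2:232318242-232348352, minus strand), which binds the ribosomal RNA precursor, was at 1496, 1849 and 2276 CPM in parental cells and at 1124, 1239 and 1415 CPM in PGCC. These groups did not overlap either, and NCL fell by 0.54 (SE 0.0948, edgeR adjusted p = 0.000336). DDX21, an RNA helicase that couples RNA polymerase I transcription to RNA processing, fell by 0.46 and NOLC1, a chaperone of snoRNPs, fell by 0.28. NOLC1 was close to the threshold (adjusted p = 0.0474): it no longer passed with any 1 of PGCC replicates 2, 4, 5 and 6 or parental replicates 1, 2, 3 and 6 left out (adjusted p up to 0.103), nor in DESeq2 (adjusted p = 0.0601).

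TCOF1 (treacle, chr5:149737202-149779871, plus strand), a scaffold of RNA polymerase I transcription, went the other way. It is described in full because its direction was seen in the data. Parental libraries were at 111, 129 and 145 CPM (lowest, median and highest) and PGCC libraries at 167, 179.6 and 193 CPM. Every PGCC library lay above every parental one, and TCOF1 rose by 0.50 (SE 0.0805, ratio 1.41, edgeR adjusted p = 0.000187). LYAR (chr4:4269428-4291896, minus strand), a nucleolar protein of growing cells, had the smallest difference of this group. It was at 87.4, 139 and 157 CPM in parental cells and 112, 137 and 160.4 CPM in PGCC. These ranges overlapped almost fully, and its log2 fold change of 0.07 did not pass (95% interval -0.26 to 0.40, edgeR adjusted p = 0.716), although it passed as higher in replicates 4 and 5 alone.

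Of the 4 proteins of the box C/D snoRNPs and their relatives, RRP9 and NOP58 fell, and FBL and NOP56 did not pass, though they did without replicates 4 and 5 and with the replicate number as a block, a fit that sets each library against the one of the same number. RRP9 (chr3:51967446-51975957, minus strand) binds the U3 snoRNA, which guides the first cuts of the precursor, and had the largest fall of the 40 genes. It was at 84.5, 142 and 184 CPM in parental cells and at 63.1, 74.3 and 80.4 CPM in PGCC. The groups did not overlap, although parental replicates 4 and 5, at 86.8 and 84.5 CPM, came close, and RRP9 fell by 0.87 (SE 0.172, ratio 0.548, edgeR adjusted p = 0.000915). NOP58 (chr2:203130439-203168389, plus strand), a core protein of all box C/D particles, was at 182, 264 and 322 CPM in parental cells and at 144, 203 and 223 CPM in PGCC. The ranges overlapped, and NOP58 fell by 0.38 (SE 0.146, edgeR adjusted p = 0.0446), which was lost with any 1 of PGCC replicates 2, 4, 5 and 6 or parental replicates 1, 2, 3 and 6 left out (adjusted p up to 0.099). FBL (fibrillarin, chr19:40325098-40337054, minus strand), the methyltransferase of these particles, was at 177, 215 and 239 CPM in parental cells and at 161, 182 and 202 CPM in PGCC. Its ranges overlapped too, and its log2 fold change of -0.20 (SE 0.0829) had an edgeR adjusted p of 0.0622, or 0.0454 with the replicate block. NOP56, the partner of NOP58, had a log2 fold change of -0.38 with an adjusted p of 0.11, or 0.0208 with the block.

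The 4 core proteins of the box H/ACA snoRNPs divided in 2 directions, with a median of -0.53. DKC1 (dyskerin, chrX:153991031-154005964, plus strand) is the pseudouridine synthase and also a part of telomerase. It was at 395, 514 and 631 CPM in parental cells and at 252, 312 and 351 CPM in PGCC. The groups did not overlap, and DKC1 fell by 0.70 (SE 0.123, ratio 0.615, edgeR adjusted p = 0.000365). GAR1 (chr4:110736666-110745893, plus strand) was at 52.3, 64.3 and 76.3 CPM in parental cells and at 40.3, 45.1 and 46.1 CPM in PGCC, again with no overlap, and fell by 0.53 (SE 0.0920, edgeR adjusted p = 0.000307). NHP2, the third protein of the particle, fell by 0.52 with no overlap. NOP10 (chr15:34633917-34635378, minus strand), the smallest subunit, was at 67.1, 75.9 and 79.2 CPM in parental cells and at 75.3, 85.8 and 98.6 CPM in PGCC. Its ranges overlapped, and NOP10 rose by 0.21 (SE 0.0769, edgeR adjusted p = 0.0354), a call lost with any 1 of PGCC replicates 2, 4 and 5 or parental replicates 1, 3, 4 and 6 left out (adjusted p up to 0.0833), without replicates 4 and 5, and with a correction for gene length (0.07, adjusted p = 0.576).

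Of 6 subunits and factors of RNA polymerase I, POLR1B, UBTF and POLR1C fell and 3 did not pass, with a median of -0.26. POLR1B (chr2:113299492-113334635, plus strand), the second largest subunit, was at 80.9, 130.5 and 152 CPM in parental cells and at 64.9, 81.9 and 86.8 CPM in PGCC. The lowest parental level lay within the PGCC range, and POLR1B fell by 0.62 (SE 0.140, edgeR adjusted p = 0.00231). UBTF (chr17:42282401-42298994, minus strand), the factor that holds ribosomal DNA open for transcription, was at 203, 294 and 325 CPM in parental cells and at 196, 207 and 229.9 CPM in PGCC. The lowest parental library lay below the PGCC median, and UBTF fell by 0.39 (SE 0.113, edgeR adjusted p = 0.0117). POLR1C, a subunit shared with RNA polymerase III, fell by 0.30. POLR1A, the largest subunit, did not pass (log2 fold change -0.21, adjusted p = 0.314), nor did POLR1E (0.07, adjusted p = 0.779). RRN3 (chr16:15153879-15188174, minus strand), the initiation factor that makes the polymerase ready to start, was at 138, 147 and 177 CPM in parental cells and at 127, 151 and 169 CPM in PGCC. Its ranges overlapped, with a log2 fold change of -0.04 (95% interval -0.23 to 0.15, edgeR adjusted p = 0.762).

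All 3 genes of the PeBoW complex, which is needed to process the RNA of the large subunit, fell, with a median of -0.50. WDR12 (chr2:203745323-203879521, minus strand) was at 84.9, 96.0 and 103 CPM in parental cells and at 55.0, 58.9 and 63.5 CPM in PGCC. The gap between the groups was wide, and WDR12 fell by 0.69 (SE 0.0694, ratio 0.620, edgeR adjusted p = 2.9e-06), the smallest adjusted p of the 40. PES1 (chr22:30972615-31003070, minus strand) was at 228, 286 and 349.7 CPM in parental cells and at 181, 198 and 225 CPM in PGCC, with no overlap, and fell by 0.50 (SE 0.0965, edgeR adjusted p = 0.000792). BOP1 (chr8:145486055-145515082, minus strand), which joins the other two, was at 38.8, 51.5 and 63.4 CPM in parental cells and at 37.4, 39.4 and 45.4 CPM in PGCC. Its ranges overlapped, and BOP1 fell by 0.35 (SE 0.120, edgeR adjusted p = 0.0264), a call lost with any 1 of PGCC replicates 3 and 6 or parental replicates 1 and 2 left out (adjusted p up to 0.06).

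Of the 8 other assembly factors of the large subunit, 4 fell, with a median of -0.40 over the 8. EBNA1BP2 (chr1:43629846-43736607, minus strand), an early factor of large subunit assembly whose promoter E-box is printed above, was at 85.6, 151 and 176 CPM in parental cells and at 65.5, 89.6 and 96.3 CPM in PGCC. Only parental replicates 4 and 5 lay within the PGCC range, and EBNA1BP2 fell by 0.68 (SE 0.183, edgeR adjusted p = 0.00739). NIP7 (chr16:69373333-69377014, plus strand), which binds the precursor RNA, was at 135, 161 and 195 CPM in parental cells and at 85.04, 101 and 122 CPM in PGCC. The groups did not overlap, and NIP7 fell by 0.67 (SE 0.101, edgeR adjusted p = 0.000108). GNL3 (nucleostemin), a GTPase named for its level in stem cells, fell by 0.57 with no overlap, and NOP16 fell by 0.50. GNL2 (chr1:38032417-38061536, minus strand), a GTPase needed for export of the large subunit, was at 86.3, 114 and 135 CPM in parental cells and at 101, 112 and 124 CPM in PGCC. All PGCC libraries lay within the parental range, with a log2 fold change of 0.03 (95% interval -0.21 to 0.26, edgeR adjusted p = 0.844). The RNA methyltransferase NOP2 (-0.30, adjusted p = 0.174), RRP1 (-0.27, adjusted p = 0.113) and MRTO4 (-0.26, adjusted p = 0.127) did not pass, but did without replicates 4 and 5. RRP1 and MRTO4 passed as lower with the block (adjusted p = 0.0464 and 0.0331).

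Of 9 genes of the small subunit processome and of the maturation of the 40S subunit, 7 fell, with a median of -0.44. RRP12 (chr10:99116115-99161127, minus strand), which helps to export both subunits, was at 101, 144 and 198 CPM in parental cells and at 65.9, 84.0 and 101 CPM in PGCC. The ranges met within 1 CPM, and RRP12 fell by 0.81 (SE 0.161, ratio 0.570, edgeR adjusted p = 0.000915). UTP20 (chr12:101673887-101780394, plus strand), a very large scaffold of the processome, was at 50.01, 125 and 176 CPM in parental cells and at 43.2, 67.3 and 99.8 CPM in PGCC. Parental replicates 4 and 5, at 59.9 and 50.01 CPM, lay inside the PGCC range, and UTP20 fell by 0.75 with the largest standard error of the 40 (SE 0.293, ratio 0.596, edgeR adjusted p = 0.0488). A two-sided exact permutation test over all divisions of its 12 libraries into 6 and 6 gave p = 0.0974, and its call was lost in 9 of 12 fits with 1 library left out (PGCC replicates 1, 2, 4, 5 or 6, or parental replicates 1, 2, 3 or 6, adjusted p up to 0.112). Without replicates 4 and 5 its log2 fold change was -0.90 (adjusted p = 0.000222), and in those alone -0.11 (adjusted p = 0.574).

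WDR43 and UTP18, proteins of the processome, fell by 0.59 and 0.54 with no overlap. NOB1, the nuclease of the last cut of the small subunit RNA, fell by 0.44 with no overlap, NOP14 fell by 0.43 and the GTPase BMS1 by 0.35. TSR1, with a log2 fold change of -0.23, had an adjusted p of 0.0801, or 0.0086 with the block. WDR75 (chr2:190306159-190340291, plus strand) was at 87.3, 106 and 109.7 CPM in parental cells and at 74.9, 95.7 and 104 CPM in PGCC. Its ranges overlapped over most of their length, with a log2 fold change of -0.13 (95% interval -0.34 to 0.08, edgeR adjusted p = 0.297).

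**Figure D4:**
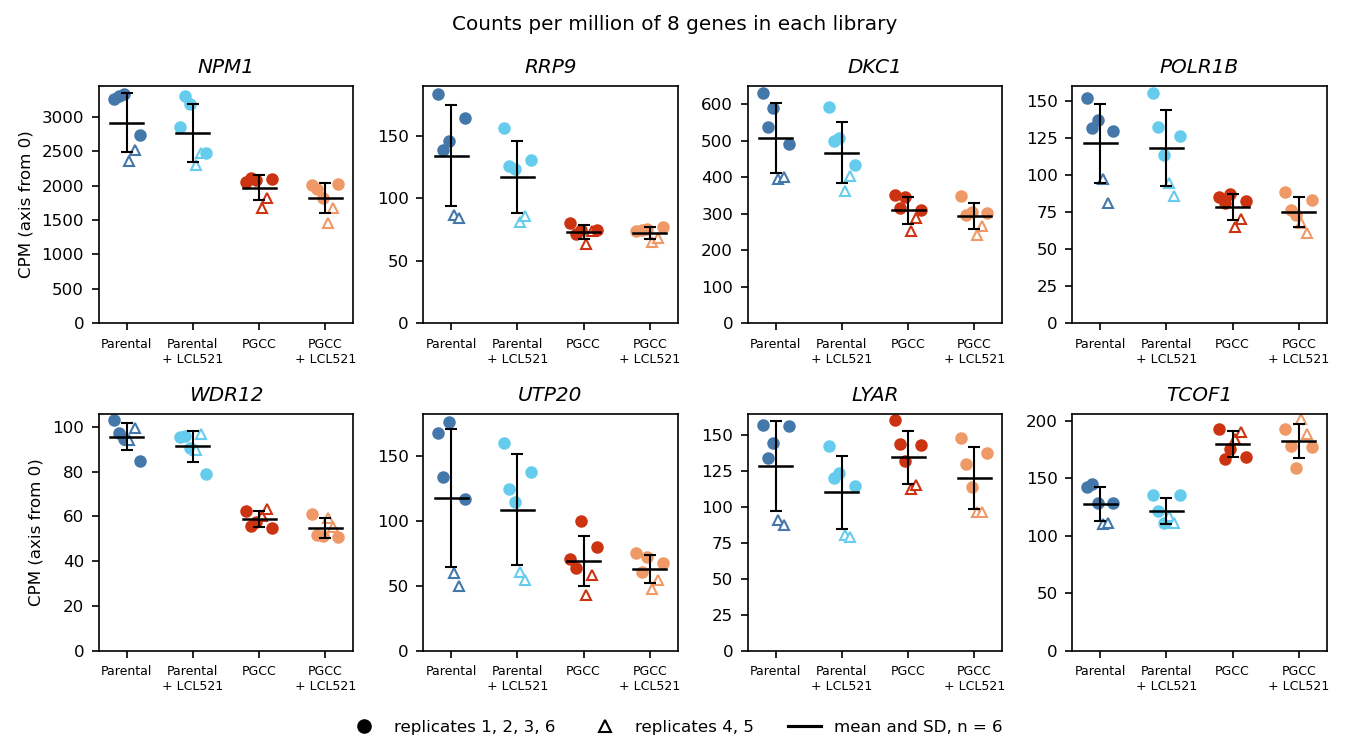
CPM (vertical axes, from 0) of NPM1, RRP9, DKC1, POLR1B, WDR12, UTP20, LYAR and TCOF1 in each of the 24 libraries by condition, with mean and SD (n = 6), replicates 4 and 5 drawn as triangles. WDR12 shows a gap between parental cells (84.9 to 103 CPM) and PGCC (55.0 to 63.5 CPM), UTP20 spreads from 50.01 to 176 CPM in parental cells with the triangles lowest, and TCOF1 is higher in PGCC.

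Fitted with the replicate block, 31 of the 40 genes passed as lower and 2 as higher, where 28.3% of all genes passed as lower and 27.9% as higher. The 5 added were NOP56, FBL, RRP1, MRTO4 and TSR1, and none was lost.

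The genes of 10 members overlap another gene that holds more than 5% as many counts as the member. These are GNL3, MRTO4, NHP2, NIP7, NOP14, NOP16, POLR1C, RRN3, TSR1 and WDR12, and the largest such neighbours are XPO5 beside POLR1C (192% of its counts) and EMC1 beside MRTO4 (143%). Whether the counting used strand is not given in the sources used here, so reads from the overlapping stretches cannot be assigned with certainty. Pseudogenes named after 7 of the members hold few counts, at most 2.49% of the member's own, for BMS1, and 1.06% for NPM1.

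The wider machinery of ribosome assembly moved in the same direction. A list of 158 further genes, none among the 40, had 155 tested, of which 78 fell and 3 rose, with a median of -0.31. Of all genes tested, 24.3% passed as lower and 23.1% as higher. With the replicate block 95 of the 155 passed as lower and 8 as higher, where 28.3% and 27.9% of all genes did. The counts by role that follow are without the block. The lists by role were 15 genes of RNA polymerase I (8 fell), 12 of snoRNP assembly (6 fell), 56 of the large subunit (26 fell), 48 of the small subunit (28 fell, 3 rose) and 24 of RNase MRP and the nuclear exosome (10 fell). The RNA polymerase I subunits POLR1G and POLR1H fell by 0.96 and 0.92. The largest falls in the other lists were 0.47 in COIL, the scaffold of Cajal bodies, and 0.45 in NHP2L1, a snoRNP core protein; 0.90 in RRS1 and 0.80 in RRP15 of the large subunit; 1.02 in NOL7 and 0.86 in TRMT112, the partner of RNA methyltransferases; and 0.85 in EXOSC5 and 0.75 in EXOSC6 of the exosome. The methyltransferase BUD23 and the kinase RIOK3 of the small subunit rose by 0.43 and 0.30. Of 78 cytosolic ribosomal protein genes tested, 73 fell, with a median of -0.65, and of 74 for mitochondrial ribosomal proteins 38 fell and 3 rose, with a median of -0.29. With the block 73 of the cytosolic genes passed as lower, and 44 of the mitochondrial ones passed as lower and 4 as higher.

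Of 14 known regulators of these genes or of growth arrest that were tested, 8 fell and 3 rose. Of all genes tested, 24.3% passed as lower and 23.1% as higher. With the replicate block 9 of the 14 passed as lower and 4 as higher. MYC, the best known activator of nucleolar genes, was at 943, 1065 and 1667 CPM in parental cells and at 593, 644 and 785 CPM in PGCC. The groups did not overlap, and MYC fell by 0.89 (SE 0.150, edgeR adjusted p = 0.000263). Its partner MAX fell by 0.37, and MGA, MNT, MXD4 and MXI1, which compete for MAX, fell by 0.64, 0.64, 0.60 and 1.04. MYCL fell by 0.93 and CDKN2A by 0.91. CDKN1A, the p21 inhibitor of the cell cycle, rose by 3.74 (ratio 13.3), RB1 rose by 0.96 and MXD3 by 0.92. MXD1 (0.07, adjusted p = 0.894) and MDM2 (-0.22, adjusted p = 0.0576) did not pass, and MDM2 passed with the block (adjusted p = 0.0269).

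Markers of proliferation moved the other way from the nucleolar genes. The summed level of MKI67, TOP2A and CCNB1 was between 69.8 and 238 CPM in parental libraries and between 464 and 615 CPM in PGCC, and all 3 rose (by 2.19, 2.03 and 1.66). The summed level of the epithelial markers EPCAM, KRT8, KRT18 and CDH1 was 244 to 361 CPM in parental libraries and 296 to 420.3 CPM in PGCC. Within it KRT8 rose by 1.35 and KRT18 fell by 0.46, while CDH1 (-0.61, adjusted p = 0.0964) did not pass and EPCAM was too low to test. HOXB13 fell by 0.80. The leukocyte marker PTPRC rose by 1.39 at low levels, with 0.406 to 2.74 CPM in parental libraries and 2.34 to 4.03 CPM in PGCC, and the other leukocyte marker, CD68, was at 0 in all 12. The fibroblast markers COL1A1, COL1A2 and DCN summed to 49.8 to 133 CPM in parental libraries and 79.0 to 205 CPM in PGCC. COL1A2 rose by 0.82 (adjusted p = 0.0474), COL1A1 did not pass (-0.23, adjusted p = 0.4) and DCN was at a median of 0 and 0.113 CPM. The endothelial marker CDH5 was at most at 0.404 CPM. The part of these markers in the nucleolar result was not tested.

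The same comparison was made under LCL521, in 12 other libraries. These bear the same replicate numbers as the first 12 and varied together with them, so they are not an independent repeat. With the inhibitor in both populations, 24 of the 40 genes were lower in PGCC and 1, TCOF1, was higher, with a median of -0.35 against -0.01 over all 13818 genes tested, of which 48.9% passed, 23.9% as lower and 25.0% as higher. All 24 were among the 26 that fell without the inhibitor. The remaining pair were NOLC1 (-0.22, adjusted p = 0.0781) and BOP1 (-0.10, adjusted p = 0.391). TCOF1 rose by 0.61, and NOP10 had a log2 fold change of 0.13 that did not pass (adjusted p = 0.365). The libraries did not overlap for 13 genes as lower and for 1 as higher, against 13.7% and 14.4% of all genes, and 12 of the 13 were also free of overlap without the inhibitor. The largest falls were again in genes of the small subunit processome, PeBoW and the snoRNPs, with 0.76 in RRP12, 0.75 in UTP20, 0.71 in WDR12 and 0.67 in RRP9. By replicate pair the median difference over the 40 genes was -0.47, -0.42, -0.44, -0.31, -0.32 and -0.31 in replicates 1 to 6, a mean of -0.38 ± 0.07 (SD, n = 6 pairs). The block added NOLC1, NOP56 and TSR1 as lower (adjusted p = 0.0118, 0.0335 and 0.019) and POLR1E as higher (adjusted p = 0.046), so that 27 passed as lower and 2 as higher, where 26.8% and 29.5% of all genes did. Without replicates 4 and 5, 28 passed as lower and 1 as higher (median -0.36), and in replicates 4 and 5 alone 23 and 2 (median -0.31). The shares of all genes that passed in these smaller fits are not given here.

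The differences with LCL521 were small. The fits without the replicate block come first. In parental cells none of the 40 genes passed, at an adjusted p or at an unadjusted p under 0.05, among 13277 genes of which 0 (0%) passed in edgeR, 0 in DESeq2 and 71 (0.535%) at an unadjusted p under 0.05. The log2 fold change was nevertheless below 0 for all 40 genes, against 50.1% of all genes, with a median of -0.10 against 0.00. In PGCC, 36 of the 40 were below 0, against 51.3% of all genes, with a median of -0.07, and again none passed at either p, while of 14151 genes 1 (0.00707%) passed in edgeR, 4 in DESeq2 and 1.54% at an unadjusted p under 0.05. The 40 genes vary together over the libraries of a group, so the count below 0 is a description of 12 libraries and not of 40 separate observations. Related lists also lay mostly below 0. Of the 155 further genes of ribosome assembly, 136 did so in parental cells and 138 in PGCC. For 78 cytosolic ribosomal protein genes the counts were 54 and 70, and for 74 mitochondrial ones 59 and 68. By replicate pair, the median over the 40 genes was below 0 in all 6 pairs of parental cells (from -0.18 to -0.03) and in all 6 pairs of PGCC (from -0.16 to -0.02). It was between -0.05 and -0.03 in parental replicates 4 and 5, and between -0.18 and -0.10 in the other 4. Without replicates 4 and 5 none of the 40 genes passed in either population, and the medians were -0.12 in parental cells and -0.08 in PGCC.

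The libraries of the same replicate number varied together, and with that number as a block 1 of the 40 genes passed in parental cells and 3 in PGCC. All were lower, where 0.346% and 0.572% of all genes passed as lower. In these edgeR fits 23 of the 40 genes had an unadjusted p under 0.05 in parental cells and 19 in PGCC. The share of all genes at that unadjusted p with the block is not given here. LYAR passed in both populations. In parental cells it went from 87.4, 139 and 157 CPM (lowest, median and highest) to 79.3, 117 and 142 CPM with LCL521, and in PGCC from 112, 137 and 160.4 CPM to 96.4, 122 and 147 CPM. The ranges overlapped in both, but every pair was lower with LCL521, and with the block LYAR fell by 0.21 in parental cells (SE 0.0431, edgeR adjusted p = 0.0318) and by 0.16 in PGCC (SE 0.0351, edgeR adjusted p = 0.0127).

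NOP16 (chr5:175810949-175815976, minus strand), a large subunit assembly factor and MYC target, was at 43.2, 54.3 and 56.4 CPM in PGCC and at 38.1, 47.1 and 51.6 CPM with LCL521. It was lower in 6 of 6 pairs and with the block fell by 0.17 (SE 0.0416, edgeR adjusted p = 0.0332). In parental cells, where it was at 50.2, 78.9 and 93.0 CPM and at 46.4, 73.1 and 79.6 CPM with LCL521, its blocked log2 fold change was -0.12 (adjusted p = 0.319). EBNA1BP2 was at 65.5, 89.6 and 96.3 CPM in PGCC and at 58.6, 78.6 and 90.3 CPM with LCL521. It too was lower in 6 of 6 pairs, and with the block it fell by 0.14 (SE 0.0375, edgeR adjusted p = 0.0489). In parental cells its blocked log2 fold change was -0.19 (95% interval -0.30 to -0.08, adjusted p = 0.109). None of these calls held with the block once replicates 4 and 5 were left out as well, a fit of 4 pairs added after seeing the data. LYAR was then at -0.23 in parental cells (adjusted p = 0.179) and -0.14 in PGCC (adjusted p = 0.153), NOP16 at -0.17 in PGCC (adjusted p = 0.141) and EBNA1BP2 at -0.14 (adjusted p = 0.22). Over the 40 genes, 19 were lower in 6 of 6 pairs of parental cells, 14 in 6 of 6 pairs of PGCC and 10 in both. How many of all genes did so is not given here. For a single gene the paired exact permutation test over 64 sign changes cannot go below p = 0.03125.

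**Figure D5:**
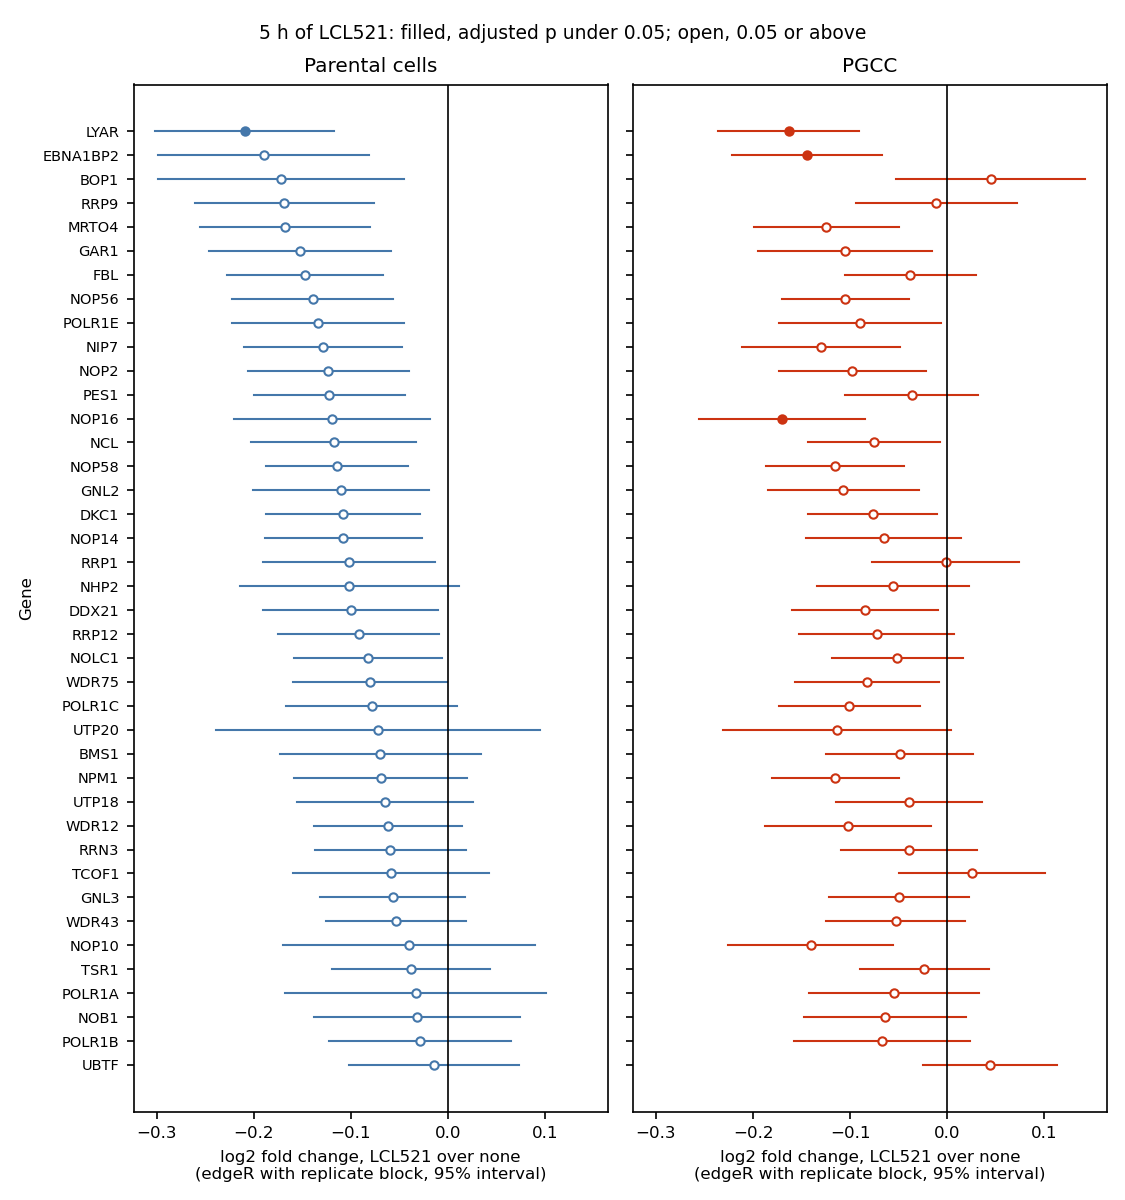
Log2 fold change with LCL521 (horizontal axis) of each of the 40 genes in parental cells and in PGCC, from the fit with the replicate block, with 95% confidence intervals (bars). Nearly all points lie between 0 and -0.21, and LYAR, NOP16 and EBNA1BP2 are the genes that passed in at least 1 population.

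Whether LCL521 acted differently in the populations was tested as an interaction over all 24 libraries. None of the 40 genes passed, nor did any of 14555 genes in edgeR (0%, with 60 of them, or 0.412%, at an unadjusted p under 0.05). The median interaction of the 40 genes was 0.03 on the log2 scale, 0.06 without replicates 4 and 5 and -0.04 in those alone. All 40 of the 95% intervals held 0, and over the 40 genes their outermost bounds were -0.85 and 0.80. With the replicate block all 40 again held 0, and the outermost bounds were -0.49 and 0.50. With the block the interval was -0.14 to 0.24 for LYAR, -0.27 to 0.18 for NOP16 and -0.17 to 0.27 for EBNA1BP2. The parental and PGCC libraries without LCL521 enter both this test and the comparisons above.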

How the data were processed

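RNA-seq counts per gene were analysed for 24 libraries. The authors made these counts: per the labels and the study's methods, reads from CASAVA were aligned with STAR to hg19 and counted per gene with HTSeq, and the deposited table holds raw counts with no normalization. The strand setting and the annotation release are not given in the sources used here. No column of per-sample values was left out (0), and the authors' own comparisons were not used.

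Groups came from the sample titles. Genes were kept with edgeR's filterByExpr (minimum count 10, minimum total 15), scaled by TMM and tested by edgeR's quasi-likelihood test (edgeR 4.0.16, R 4.3.3) in each pair of conditions, 12 libraries at a time, with Benjamini-Hochberg adjustment over all genes and a threshold of 0.05, and the interaction was fitted on all 24. CPM are scaled by TMM, and log2 CPM used a prior count of 2. DESeq2 1.42.0, other scalings, filters, libraries left out and a gene length correction were alternatives. The code was tested on simulated data. Single genes were also tested by an exact permutation test, whose smallest p is 0.0021645 for 6 against 6.

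The labels number the replicates of each condition 1 to 6, and the submitters' design text gives independent repeats of the experiment, with the conditions of a repeat harvested together. Same-numbered libraries deviated together: the lowest of 6 correlations was 0.237 for PGCC against parental cells, 0.171 with LCL521, and 0.458 and 0.385 for LCL521 in parental cells and in PGCC. The numbers were therefore taken to pair the libraries, and the block is given beside a result where it changed a call. No 2 libraries agreed within sampling noise (chi-square per degree of freedom at least 5.05).

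The 40 genes and all gene lists were chosen with earlier results of these data known. By rule, all 40 genes are named, and values by library are given for the 2 largest and the 1 smallest log2 fold change in each role and for genes that passed under LCL521. Of further lists the 2 largest rises and falls are named, and each regulator and marker of at least 1 CPM. With between 14835246 and 19906601 counts per library, counting error is small beside the spread between replicates. EMG1 and PECAM1 were not analysed here. Some genes of the regulator and marker lists are not reported here.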

Additional observations from a re-analysis of the deposited data

Results flagged for a closer look

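Of 164 groups of 6 libraries tested, 4 had a library far from the others (a gap over 0.625 of the group's range), and chance flags about 1 in 20 groups. DDX21 was highest in parental cells with LCL521, replicate 1, at 942 CPM (gap 0.791 of the range). WDR12 was lowest in parental cells with LCL521, replicate 6, at 78.8 CPM (0.628). NHP2 stood apart in PGCC replicate 6 at 77.1 CPM (0.777), and GNL2 in PGCC with LCL521, replicate 1, at 127 CPM (0.657). None of the 4 was in replicates 4 or 5.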

How the results depend on the processing

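Between PGCC and parental cells the number of the 40 genes past the threshold (28) ran from 23 (without parental replicate 1) to 32 (without parental replicate 4) with 1 library left out, and the median log2 fold change from -0.48 to -0.36. In replicates 4 and 5 alone the median was -0.19. With LCL521 in both populations the number ran from 24 to 27 and the median from -0.42 to -0.30. For LCL521 in parental cells the number stayed at 0 with 1 library left out and the median ran from -0.18 (without replicate 1 of parental cells with LCL521) to -0.0433 (without parental replicate 1), for LCL521 in PGCC at 0 and from -0.12 to -0.04, and for the interaction at 0 and from -0.04 to 0.08. For LCL521 in parental cells 1 gene passed with the replicate block, 4 with the block and a gene length correction and 3 in DESeq2 with the block. In PGCC these numbers were 3, 1 and 3. Beyond the calls named in the text the block changed no other call among the 40 genes. Of the 14 regulators tested, 2 passed as higher for LCL521 in PGCC with the block and 0 without it. With LCL521 in both populations 8 of the regulators were lower in PGCC with the block and 7 without it.

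Other settings ended further calls between PGCC and parental cells, beside those lost in replicates 4 and 5 alone. With library totals NOLC1, NOP58, UTP20, BOP1 and POLR1C no longer passed (adjusted p from 0.0747 to 0.165). With RLE factors (adjusted p from 0.0519 to 0.0597) and with at least 10 counts in every library (0.061 to 0.0745) NOLC1, NOP58 and UTP20 were lost. In DESeq2 NOLC1 was lost (0.0601), and with the length correction NOP58 (0.0707). NOP10 no longer passed with the length correction (0.576, or 0.399 with the block), with no filter beyond 1 count (0.157), without replicates 4 and 5 (0.101) and with all 24 libraries in one fit (0.0806). With LCL521 in both populations NOP58 was lost with library totals, the stricter filter and the length correction (0.0518 to 0.0713).

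The direction of some genes that did not pass turned. RRN3 was at 0.0578 with library totals, 0.00106 with at least 10 counts in every library and 0.0104 without replicates 4 and 5 (0.0131 with the block too, added after seeing the data, as was DESeq2 with the block). Without replicates 4 and 5, LYAR was at -0.0144 and GNL2 at -0.0528 (-0.0141 and -0.0532 with the block too). In replicates 4 and 5 alone, FBL was at 0.0192, NOP56 0.0587, POLR1A 0.11, NOP2 0.20, RRP1 0.0869, MRTO4 0.0497 and BOP1, which had passed as lower, 0.10 (0.0938 with LCL521). With LCL521, NOP10 was at -0.0253 under the length correction and -0.0168 with the block too. With 1 library left out, GNL2 ran from -0.0363 to 0.0895, LYAR from -0.0178 to 0.13, POLR1E from -0.0299 to 0.18 and RRN3 from -0.0818 to 0.00542. In the interaction EBNA1BP2 ran from -0.0282 to 0.16, LYAR from -0.0259 to 0.14 and NOP16 from -0.13 to 0.0375, and in replicates 4 and 5 alone LYAR was at -0.0551 and EBNA1BP2 at -0.0840. The cause was not tested.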
